A study of Mus musculus with 6 samples.

Results

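The neurexin, neuroligin and Lrrtm genes examined here are 9 of the 17348 genes in the deposited count table: Nrxn2 and Nrxn3, Nlgn1, Nlgn2 and Nlgn3, and Lrrtm1, Lrrtm2, Lrrtm3 and Lrrtm4. They were taken from the table by gene symbol, and other members of these families were not analysed here. All 9 were among the 13570 genes that passed the filter on low counts. The samples are mouse embryonic cortices at E18.5, with 3 libraries from Nestin-Cre, Ybx1 fl/fl embryos (Ybx1 cKO) and 3 from control littermates (Ctrl). The authors define control mice as Ybx1 fl/fl without Nestin-Cre, but their RNA sequencing methods and the sample labels call these controls wild type (WT). Nestin-Cre acts in neural progenitors and their descendants, so cells of other origin in the cortex keep Ybx1. Whether a library came from 1 embryo or several is not given in the sources used here, and p-values measure the spread between these libraries.

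Neurexins are presynaptic membrane proteins, and neuroligins and Lrrtm proteins are postsynaptic membrane proteins that bind them across the synaptic cleft. Neuroligin 1 is known mainly at excitatory synapses, neuroligin 2 at inhibitory synapses and neuroligin 3 at both kinds, while Lrrtm proteins, which carry leucine-rich repeats, act at excitatory synapses. Synapses are only starting to form in the mouse cortex around birth, and the levels below belong to that stage.

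The targeted gene separated the groups. Ybx1 stood at 1015, 1297 and 956 CPM (counts scaled to library size by the TMM method) in Ctrl replicates 1 to 3 and at 24.0, 24.8 and 24.9 CPM in cKO. Its log2 fold change was -5.47 (edgeR, standard error 0.164, adjusted p = 6.95e-07). Library totals ran from 15091951 to 16885451 estimated counts, and the 9 genes had between 139 counts (Lrrtm3) and 6278 counts (Nlgn2) in a library, far above a floor of 3 counts. Transcripts of the Y chromosome differed as well, since Eif2s3y had 1422 to 1756 counts in Ctrl and at most 1 in cKO. Ddx3y, Kdm5d and Uty were likewise far higher in every Ctrl library than in any cKO library. Genotype and sex, as these transcripts show it, cannot be told apart in any comparison of cKO with Ctrl below.

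The genes differ widely in their build. On GRCm38, Nrxn3 spans 1612 kb of chromosome 12 (chr12:88722876-90334935), Nlgn1 906 kb of chromosome 3 (chr3:25426215-26332460) and Lrrtm4 791 kb of chromosome 6 (chr6:80018877-80810143). Lrrtm3 covers 162 kb of chromosome 10 (chr10:63928472-64090277) and Nrxn2 125 kb of chromosome 19 (chr19:6418731-6544169). The 4 others are compact: Nlgn3 takes 26.8 kb of the X chromosome (chrX:101299168-101325963), Lrrtm1 15.1 kb of chromosome 6 (chr6:77242689-77257791), Nlgn2 14.7 kb of chromosome 11 (chr11:69823122-69837784) and Lrrtm2 6.02 kb of chromosome 18. Lrrtm1, Lrrtm2 and Lrrtm3 lie inside Ctnna2, Ctnna1 and Ctnna3, which encode alpha-catenins, on the opposite strand. Strandedness of the counting is not given in the sources used here, and Lrrtm2 shares 95 exonic bases with Ctnna1 whereas the other pairs share 0. Further annotated genes on the opposite strand share more exonic bases with Lrrtm4 (1543), Nlgn1 (1229), Nrxn2 (682 and 207) and Nrxn3 (439).

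Related members also differ in base composition. The longest coding transcript of Nrxn2 is 62.4% G and C, that of Nlgn2 60.7% and that of Lrrtm1 56.1%, whereas Nlgn3 has 49.3%, Nrxn3 47.5%, Lrrtm3 44.5%, Nlgn1 38.9%, Lrrtm2 38.4% and Lrrtm4 38.4%. The difference reaches into the coding sequence, which is 62.72% G and C in Nlgn2, 55.27% in Nlgn3 and 45.95% in Nlgn1. At the third position of codons the shares are 73.68%, 63.08% and 43.42%. Relatives also use different codons for the same residue, and how much this adds to the difference in base composition was not tested. Nlgn2 and Nlgn1 share 69.0% of their aligned residues, but at those shared residues only 38.3% of codons are the same. Nlgn2 and Nlgn3 use the same codon at 49.3% of shared residues and Nlgn1 and Nlgn3 at 41.6%.

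A stretch of 25 codons that encodes identical residues in all 3 neuroligins is shown because it makes this visible, and its bearing on differences between libraries was not tested. It is read 5′ to 3′ along the coding strand, with G or C at the third position of a codon in capitals. There are 21 such positions in Nlgn2 (chr11:69826752-69826826, minus strand), 17 in Nlgn3 (chrX:101318636-101318710, plus strand) and 11 in Nlgn1 (chr3:25435861-25435935, minus strand).
Nlgn2: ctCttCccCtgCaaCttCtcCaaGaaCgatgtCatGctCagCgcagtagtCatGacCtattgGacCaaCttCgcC
Nlgn3: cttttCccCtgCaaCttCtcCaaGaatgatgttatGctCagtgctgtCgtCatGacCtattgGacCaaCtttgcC
Nlgn1: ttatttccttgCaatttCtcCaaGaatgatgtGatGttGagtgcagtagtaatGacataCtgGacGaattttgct

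The neurexins gave the same picture over 25 identical residues, with G or C at the third position of 21 codons in Nrxn2 (chr19:6472258-6472332, plus strand) and 16 in Nrxn3 (chr12:89193046-89193120, plus strand), marked in the same way.
Nrxn2: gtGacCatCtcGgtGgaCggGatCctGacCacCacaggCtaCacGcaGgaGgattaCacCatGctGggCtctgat
Nrxn3: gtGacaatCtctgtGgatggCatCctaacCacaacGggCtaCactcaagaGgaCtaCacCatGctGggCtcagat

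Among the Lrrtm genes, a stretch within the leucine-rich part of the proteins with 16 of 25 residues identical in the 3 genes shown held 20 such positions in Lrrtm1 (chr6:77243784-77243858, plus strand), 15 in Lrrtm3 (chr10:64089102-64089176, minus strand) and 12 in Lrrtm4 (chr6:80021820-80021894, plus strand).
Lrrtm1: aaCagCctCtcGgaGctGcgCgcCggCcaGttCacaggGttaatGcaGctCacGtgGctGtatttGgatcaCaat
Lrrtm3: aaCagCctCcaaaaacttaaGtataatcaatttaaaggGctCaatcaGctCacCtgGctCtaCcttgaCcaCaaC
Lrrtm4: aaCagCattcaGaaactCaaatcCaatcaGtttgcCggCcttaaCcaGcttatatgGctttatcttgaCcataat

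All 9 genes were detected in every library, and on the TPM scale, which corrects for transcript length, Nlgn2 and Nrxn2 led. In Ctrl cortex Nlgn2 stood at 157 ± 5.37 TPM and Nrxn2 at 90.8 ± 6.46 TPM (SD, n = 3). They were followed by Lrrtm1 (42.4 ± 2.68), Nlgn3 (38.9 ± 10.7), Lrrtm2 (22.6 ± 9.12), Nrxn3 (21.5 ± 4.48), Lrrtm4 (16.4 ± 3.92), Nlgn1 (12.8 ± 4.13) and Lrrtm3 (5.91 ± 1.44 TPM). The first 2 steps of this order were clear of the spread over all 6 libraries, with Nlgn2 never below 153 and Nrxn2 between 85.7 and 106 TPM. From Lrrtm1 down, each gene overlapped its neighbour in the order when all 6 libraries were compared, although Nlgn3 was above Lrrtm2, Lrrtm4 above Nlgn1 and Nlgn1 above Lrrtm3 in each of the 6. Nlgn2 was above 92.0% of all genes tested in Ctrl TPM and Lrrtm3 above 22.2%.

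Each family was led by its most GC-rich member. Nrxn2 gave 80.9% ± 3.43 of the summed neurexin TPM in Ctrl and 80.9% ± 3.86 in cKO. Of the neuroligin TPM, Nlgn2 gave 75.5% ± 5.26 in Ctrl and 73.8% ± 0.731 in cKO, with Nlgn3 at 18.4% ± 3.82 and 19.6% ± 0.736 and Nlgn1 at 6.08% ± 1.73 and 6.63% ± 0.994. Lrrtm1 gave 49.5% ± 9.27 of the Lrrtm TPM in Ctrl and 48.2% ± 3.01 in cKO (SD, n = 3 throughout). The ranges of Ctrl and cKO overlapped for every share, and the shares concern the listed genes alone. The summed Lrrtm TPM was 87.3 ± 13.1 in Ctrl and 106 ± 5.0 in cKO, with the groups apart. For the summed neurexin and neuroligin TPM the groups overlapped. Groups were apart in TPM for 21.6% of all genes tested, and that scale moved their median up by 0.14 (log2) in cKO.

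**Figure D1:**
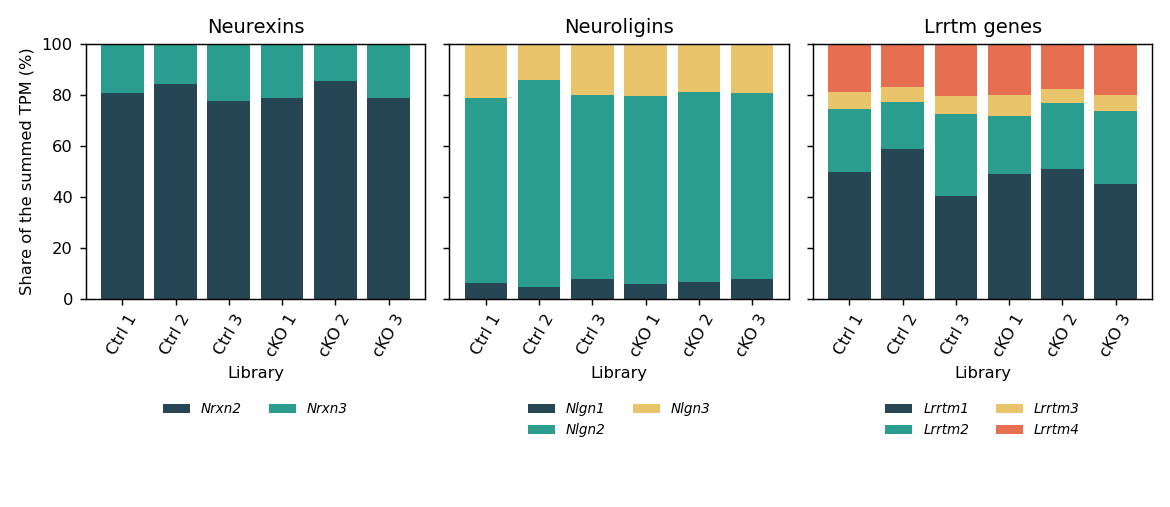
Stacked bars show each gene's share (%) of its family's summed TPM in the 6 libraries. Nrxn2 and Nlgn2 fill most of their families in each library, from 77.5% to 85.4% for Nrxn2 and from 72.3% to 81.6% for Nlgn2, while Lrrtm1 ranges from 40.2% to 58.7%.

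The first comparison asked whether these synaptic organizers differed between cKO and Ctrl. None of the 9 passed an adjusted p of 0.05 in edgeR's quasi-likelihood test, where 0.0737% of all genes tested passed. None reached an unadjusted p under 0.05 either, against 6.62% of all genes tested, and DESeq2 also called 0 of the 9 at either threshold. In 0 of the 9 were the groups apart in CPM, against 14.3% of all genes tested. Log2 fold changes lay between -0.01 and 0.20, with a median of 0.11 beside 0.00 for all genes tested. The 95% confidence intervals together ran from 0.769-fold to 1.57-fold.

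Nrxn2, the leading neurexin, had 277, 286 and 234 CPM in Ctrl replicates 1 to 3 and 278, 276 and 237 CPM in cKO. Replicate 3 was the lowest library of both groups. The log2 fold change was -0.01 (standard error 0.124, adjusted p = 0.989), with an interval of 0.816-fold to 1.203-fold. Nrxn3, the longest gene of the 9, had 87.9, 68.7 and 96.5 CPM in Ctrl and 100.1, 67.0 and 89.3 CPM in cKO. Here replicate 2 was the lowest in both groups, and the highest and lowest cKO libraries differed 1.495-fold. The difference was 0.02 in log2 fold change (standard error 0.175, adjusted p = 0.989), with an interval of 0.769-fold to 1.33-fold.

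Nlgn2, whose protein serves inhibitory synapses, had 344, 368 and 305 CPM in Ctrl and 348, 349 and 313 CPM in cKO. This was the tightest gene of the 9 in cKO, where the highest library was 1.115-fold the lowest. Its log2 fold change was -0.01 (standard error 0.115, adjusted p = 0.990), with an interval of 0.829-fold to 1.19-fold.

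Nlgn1, which serves excitatory synapses, had 96.8, 66.6 and 112 CPM in Ctrl and 89.6, 106 and 110 CPM in cKO. Ctrl replicate 2 was below the 5 other libraries. The log2 fold change was 0.15 (standard error 0.183, adjusted p = 0.903), with an interval of 0.834-fold to 1.48-fold. Nlgn3, the X-linked neuroligin, had 77.7, 50.1 and 66.0 CPM in Ctrl and 75.2, 69.4 and 65.2 CPM in cKO. Ctrl replicate 2 again stood lowest, and the other libraries of both groups ran from 65.2 to 77.7 CPM. Its log2 fold change was 0.11 (standard error 0.159, adjusted p = 0.915), with an interval of 0.844-fold to 1.39-fold. Over the 466 X-linked genes tested, the median log2 fold change was 0.03. The annotated transcript Gm21986 shares 3823 exonic bases with Nlgn3 on the same strand, so reads there can be split between them.

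Lrrtm1 had 51.1, 55.3 and 44.4 CPM in Ctrl and 57.6, 55.5 and 49.2 CPM in cKO. Replicate 3 was lowest in both groups, and the groups overlapped. The log2 fold change was 0.11 (standard error 0.121, adjusted p = 0.900), with an interval of 0.890-fold to 1.302-fold. On the TPM scale Lrrtm1 was at 44.9, 42.8 and 39.6 in Ctrl and 54.8, 52.3 and 46.3 in cKO. The groups were then apart, in 1 of the 9 genes beside 21.6% of all genes tested (p = 0.1 in a two-sided exact permutation test, which can go no lower with 3 libraries a side). That scale moved the median of all genes tested up by 0.14 (log2) in cKO, and all 9 genes had a higher mean TPM in cKO.

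Lrrtm2 had 55.2, 37.4 and 74.7 CPM in Ctrl and 58.2, 61.5 and 67.2 CPM in cKO. The Ctrl libraries differed up to 1.996-fold and enclosed all cKO libraries. The fitted log2 fold change was 0.16 (standard error 0.216, adjusted p = 0.914), with an interval of 0.797-fold to 1.57-fold. Without Ctrl replicate 3 the value was 0.43 (unadjusted p = 0.0328, adjusted p = 0.325 by the same edgeR test).

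Lrrtm3, the lowest gene of the 9, had 9.72, 8.14 and 11.4 CPM in Ctrl and 13.4, 8.75 and 9.77 CPM in cKO. Replicate 2 was lowest in both groups, and cKO replicate 1 was the highest library. The log2 fold change was 0.13 (standard error 0.205, adjusted p = 0.922), with an interval of 0.793-fold to 1.51-fold. Lrrtm4 had 24.6, 19.3 and 26.9 CPM in Ctrl and 29.7, 23.4 and 28.0 CPM in cKO. Its cKO mean was 1.14-fold the Ctrl mean, with cKO replicate 2 below 2 of the Ctrl libraries. Its log2 fold change, 0.20 (standard error 0.158, adjusted p = 0.860), was the largest of the 9, with an interval from 0.893-fold to 1.47-fold.

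**Figure D2:**
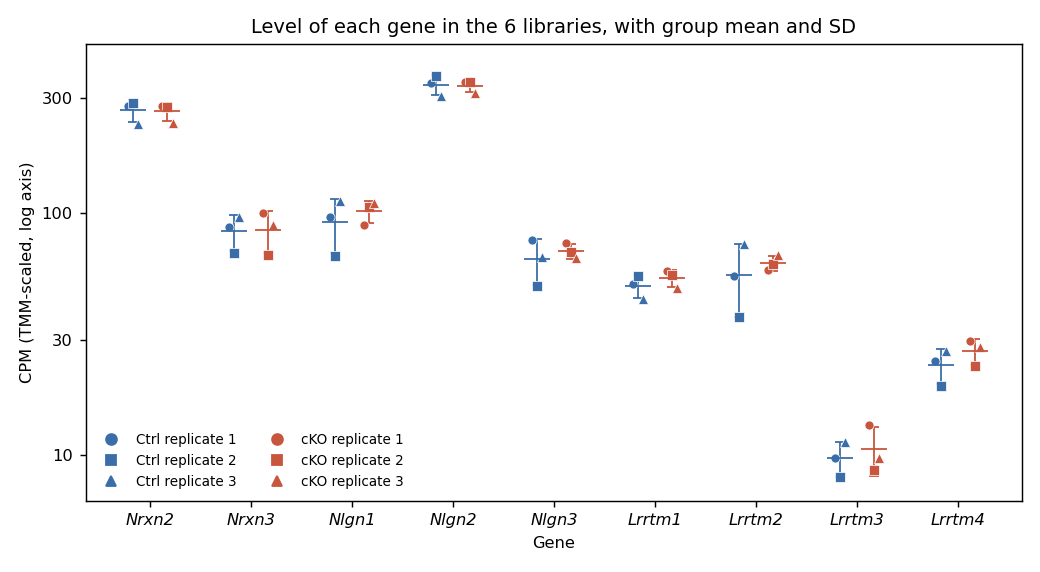
Each symbol is 1 library, with CPM on a log axis for the 9 genes, Ctrl in blue and cKO in red, and bars give the group mean and SD (n = 3). Ctrl replicate 2 (blue square) is the lowest Ctrl library for 6 genes, such as Lrrtm2 at 37.4 CPM, and the highest for Nrxn2, Nlgn2 and Lrrtm1.

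For 7 of the 9 genes the SD of log2 CPM was larger in Ctrl than in cKO, as it was for 77.0% of all genes tested, and the differences within Ctrl followed the base composition and length of the transcripts. Ctrl replicate 2 was above both other Ctrl libraries for the 3 genes over 55% GC and below both for the 6 genes under 50%. Against the mean of the other Ctrl libraries it was 1.12-fold for Nrxn2, 1.13-fold for Nlgn2 and 1.16-fold for Lrrtm1. It was 0.586-fold for Lrrtm2, 0.642-fold for Nlgn1, 0.701-fold for Nlgn3, 0.748-fold for Nrxn3, 0.755-fold for Lrrtm4 and 0.784-fold for Lrrtm3. The 3 neuroligins, close relatives in protein sequence, thus parted within 1 library: Nlgn2 was up where Nlgn1 and Nlgn3 were down.

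The same trend ran through all genes tested. The median log2 difference of Ctrl replicate 2 was -0.43 for the 657 genes under 40% GC and rose through each bin to 0.49 for the 674 genes of at least 60%. It fell from 0.54 for 536 genes with transcripts under 1000 bases to -0.61 for 851 genes with transcripts of at least 8000 bases. Nlgn3, with an annotated transcript of 8541 bases, and Nrxn3, with 7922 bases, lay below the median of genes of their GC content, at -0.51 and -0.42. So did the other members except Lrrtm4 (-0.41), among them Lrrtm1 with 2541 bases (0.21 beside a median of 0.32). Across the 9 genes the correlation of this difference with GC content was 0.902, a description over genes that share the same libraries. Ctrl replicate 3, which is part of the mean used here, tilted the other way, as did cKO replicate 3. For deviations from each gene's mean of 6 libraries, the correlation was 0.927 for Ctrl replicate 2. It was -0.877 for Ctrl replicate 3, -0.916 for cKO replicate 3 and between -0.0535 and 0.337 for the others. Over all genes tested, the median deviation under 40% GC and at 60% or more was 0.21 and -0.22 for Ctrl replicate 3. It was 0.09 and -0.10 for cKO replicate 3.

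**Figure D3:**
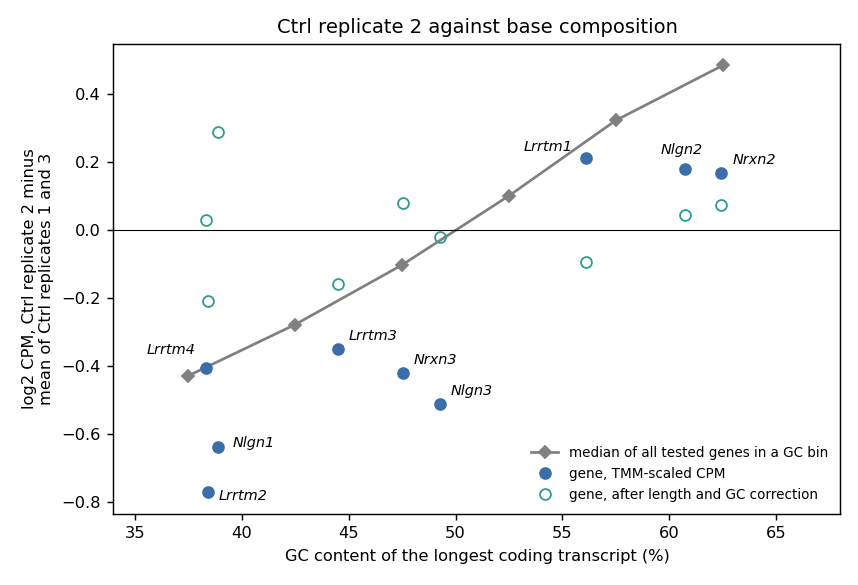
The x axis gives transcript GC content (%) and the y axis the log2 CPM of Ctrl replicate 2 minus the mean of Ctrl replicates 1 and 3. Filled points are the 9 genes, grey diamonds the medians of all tested genes in GC bins (the open-ended outer bins drawn as wide as the others), and open points the genes after correction for length and GC content. Filled points run from -0.77 (Lrrtm2) to 0.21 (Lrrtm1), and open points from -0.21 to 0.29.

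A fit that removed a smooth trend on transcript length and GC content from each library narrowed the spread. The SD of log2 CPM over the Ctrl libraries became smaller in 9 of 9 genes, for example from 0.495 to 0.163 for Lrrtm2, from 0.384 to 0.168 for Nlgn1 and from 0.136 to 0.0256 for Nlgn2. The highest and lowest of the 6 Lrrtm2 libraries then differed 1.25-fold in place of 1.98-fold, while those of Nrxn3 stayed at 1.49-fold. In cKO the SD of Nlgn3 rose from 0.102 to 0.118. The trend was estimated from these same counts, so some narrowing is built in. The median standard error fell from 0.158 to 0.106 for all genes tested, beside 0.159 to 0.0927 for the 9. In that fit 4 genes lay above 0 and 5 below, from -0.11 (Nrxn3) to 0.17 (Lrrtm1), and Nrxn3, Nlgn1 and Nlgn3 changed sign. None of the 9 passed the adjusted threshold by edgeR, beside 1.42% of all genes tested, and none had an unadjusted p under 0.05.

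Lrrtm1 came nearest, with a corrected log2 fold change of 0.17 (standard error 0.0771, unadjusted p = 0.0514, adjusted p = 0.375) and an interval of 0.999-fold to 1.27-fold. For Nlgn2 the corrected interval was 0.889-fold to 1.09-fold and for Nrxn2 0.863-fold to 1.09-fold. Without Ctrl replicate 2 and with no correction, the values were -0.03 for Nlgn1, -0.04 for Nlgn3, -0.06 for Lrrtm2 and -0.11 for Nrxn3, all opposite in sign to the fit of all 6 libraries, and 0.04 for Nrxn2 and 0.05 for Nlgn2, opposite as well. None of the 9 passed there, beside 0.891% of all genes tested.

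**Figure D4:**
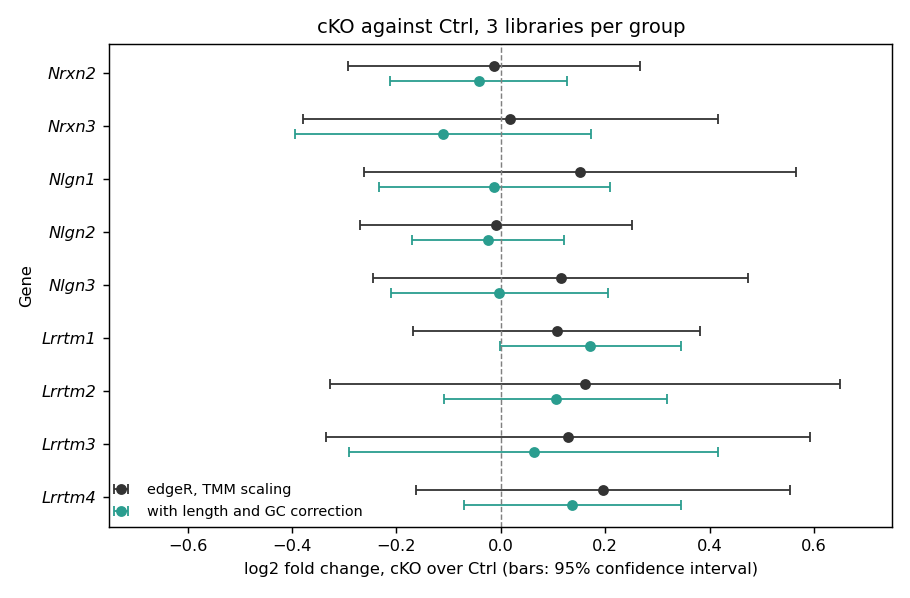
Points are log2 fold changes of cKO over Ctrl for the 9 genes with 95% confidence intervals, in black from the TMM-scaled fit and in green with the length and GC correction (3 libraries per group). Every interval includes 0, and all 9 standard errors are smaller with the correction, as is the median over all genes tested (0.106 beside 0.158).

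The genes moved together over the 6 libraries along the same division, which was drawn after the values were seen. Nrxn2, Nlgn2 and Lrrtm1 had pairwise Pearson correlations of log2 CPM of 0.860 to 0.980. The other 6 genes had correlations of 0.330 to 0.965 with each other. Between these sets all 18 correlations were below 0, from -0.855 to -0.0326. After the correction, 12 of those 18 were above 0, and within the 6 genes the median fell from 0.636 to -0.115. Nrxn2 and Nlgn2 still had a correlation of 0.986, whereas that of Nrxn2 with Lrrtm1 went from 0.860 to 0.0697 and that of Nlgn2 with Lrrtm1 from 0.876 to 0.0281. All these correlations share 6 libraries and their depth and are given as a description.

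**Figure D5:**
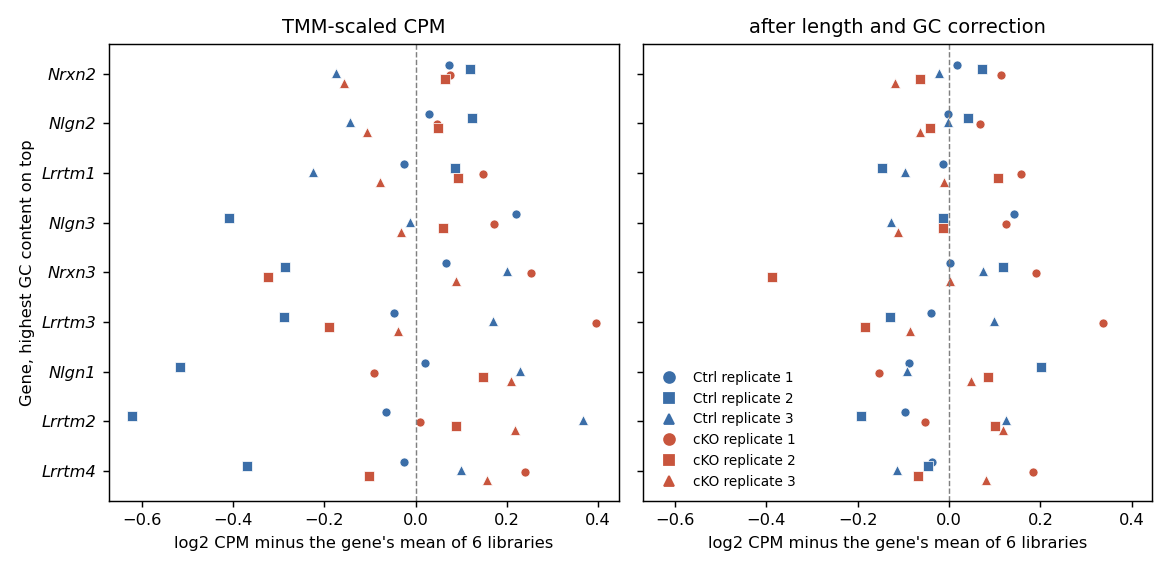
Each symbol is the log2 CPM of 1 library minus the gene's mean over 6 libraries, Ctrl in blue and cKO in red, with genes ordered by GC content. On the left (TMM-scaled CPM) Ctrl replicate 2, the blue square, lies at -0.62 for Lrrtm2 and -0.51 for Nlgn1, and on the right, after the correction, at -0.19 and 0.20.

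The gene most like a member over the 6 libraries was sought among 9879 other genes with a mean of at least 10 CPM. These were Sptbn4 for Nrxn2 (r = 0.994), St18 for Nrxn3 (0.986), Zfp865 for Nlgn2 (0.989), Hspa4l for Nlgn3 (0.999), Mmp17 for Lrrtm1 (0.989), Map3k7 for Lrrtm2 (0.998), Csgalnact2 for Lrrtm3 (0.989) and Rasgrp3 for Lrrtm4 (0.995). Such likeness was common for some members: 538 genes had r above 0.95 with Lrrtm2 and 455 with Nlgn1, against 12 with Nrxn2. The matches of Nrxn2, Nlgn2 and Lrrtm1 had GC contents of 55.9% to 63.7% and the other matches named of 39.5% to 45.2%. Each match is the highest of 9879 correlations over only 6 libraries, so a high r is built into the choice. The matches and their GC contents are given as a description, and no shared regulation was tested.

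The deposited values also give the mean effective transcript length behind each gene's estimate, as the count divided by FPKM and library total, which moves when long and short isoforms change their shares. These genes are known for extensive alternative splicing and alternative promoters. For Nlgn1 the implied length was 15.5 kb in both groups, beside 11.8 kb for the longest coding transcript in GENCODE M21, and for Nlgn3 it was 3.58 kb beside 8.54 kb. These do not match the transcript lengths used here, on which the length bins and the length and GC correction rest. The TPM levels above rest on the authors' lengths.

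Implied lengths changed little. Nrxn3 varied most, by 9.35% between its highest and lowest libraries, at 8.26, 8.09 and 8.84 kb in Ctrl and 8.30, 8.75 and 8.62 kb in cKO. Lrrtm4 varied by 5.94% and the other 7 by 0.382% to 2.86%, beside a median of 1.98% over 11638 genes. The groups were apart for Lrrtm3 alone, 1 of 9 beside 4.14% of those genes, with a difference of -0.356% between the cKO and Ctrl means. Rounding of the FPKM can move that gene's length by 0.216%. The two-sided exact permutation test gave p = 0.1 for it, the smallest possible, and an adjusted p of 0.9 over the 9 genes.

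The alpha-catenin hosts of the Lrrtm genes were measured beside them. Ctnna1, around Lrrtm2, had 85.2, 73.2 and 74.7 CPM in Ctrl and 85.2, 81.5 and 83.8 CPM in cKO, with a log2 fold change of 0.10 (edgeR, standard error 0.105, adjusted p = 0.885). Ctnna2, around Lrrtm1, had 296 ± 37.9 CPM in Ctrl and 298 ± 15.9 CPM in cKO (SD, n = 3), a log2 fold change of 0.01. Ctnna3, around Lrrtm3, had a mean of 2.33 counts in Ctrl and 1.33 in cKO, at or under the floor, while Lrrtm3 had 139 to 216 counts in the same libraries.

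The partners of these proteins were followed in 6 lists of 100 tested genes in all. None passed the adjusted threshold in edgeR or DESeq2. At an unadjusted p under 0.05, 5 were higher and 4 lower by edgeR, beside 3.14% and 3.49% of all genes tested. DESeq2 had 9 at that threshold, and its share over all genes there is not given here.

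Among 21 neurexin ligands and linked receptors, the median log2 fold change was 0.14, with 14 above 0 and 7 below. Nxph4, a neurexophilin that binds neurexin, was at 14.5 ± 2.70 CPM in Ctrl and 22.0 ± 1.49 in cKO, which is 0.60 on the log2 scale (edgeR, adjusted p = 0.444). Cbln1, a secreted linker between neurexin and a glutamate receptor of the delta type, was at 22.4 ± 4.58 and 15.3 ± 2.06 CPM, and Clstn1, a calsyntenin, at 580.0 ± 51.7 and 458 ± 29.5 CPM (adjusted p = 0.555 and 0.585). With the length and GC correction, where 1.42% of all genes tested passed, Nxph4 passed at 0.73 (adjusted p = 0.0113) and Clstn1 at -0.33 (adjusted p = 0.0430). Clstn1 passed under none of the other alternatives. Nxph4 also passed when a replicate block was added to the correction and without Ctrl replicate 2, but in none of the other edgeR or DESeq2 fits.

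Mdga1, which binds neuroligins and blocks their contact with neurexin, was at 212, 152 and 189 CPM in Ctrl and 131, 136 and 117 CPM in cKO. Every cKO library was below every Ctrl library, and groups were apart in CPM for 14.3% of all genes tested. The log2 fold change of Mdga1 was -0.53 (edgeR, standard error 0.140, unadjusted p = 0.00454, adjusted p = 0.465). With the length and GC correction it was -0.59 (adjusted p = 0.0128) and without Ctrl replicate 2 it was -0.65 (adjusted p = 0.00973). Of all genes tested, 1.42% and 0.891% passed the adjusted threshold in these 2 fits. Mdga1 also passed when a replicate block was added to the correction (edgeR, adjusted p = 0.0221), where 179 of 13570 genes passed. It passed in none of the other edgeR or DESeq2 fits. The 7 neuroligin and Lrrtm modulators as a list had a median of 0.00, with 3 above 0 and 4 below.

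The 37 other synaptic adhesion organizers had a median of 0.12, with 26 above 0 and 11 below. Ptprf, a receptor phosphatase of the presynaptic side, was at 212 ± 26.9 CPM in Ctrl and 283 ± 14.9 in cKO, and Il1rap at 9.86 ± 2.66 and 16.3 ± 3.45 CPM (adjusted p = 0.490 and 0.527). Lrrc4c, whose protein binds netrin-G1, was at 40.3 ± 4.81 and 50.6 ± 4.64 CPM (adjusted p = 0.671). With the correction Ptprf passed at 0.36 (adjusted p = 0.0394), which it did under none of the other alternatives, and the list's median was 0.02.

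The 23 intracellular scaffolds had a median of 0.09, with 16 above 0 and 7 below. Dlg4, which encodes the postsynaptic scaffold PSD-95 bound by neuroligins, was at 236 ± 8.39 CPM in Ctrl and 198 ± 16.7 in cKO, a log2 fold change of -0.25 (unadjusted p = 0.0445, adjusted p = 0.731 from edgeR). The 10 splicing regulators of neurexin and neuroligin exons had a median of 0.02 and 0 with an unadjusted p under 0.05.

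Markers of the cortical cell types were present in both groups. Of 67 marker genes tested, 0 passed the adjusted threshold in edgeR and 5 had an unadjusted p under 0.05, beside 0.0737% and 6.62% of all genes tested. In DESeq2 1, Slc17a7, passed the adjusted threshold, beside 99 of all 13570 genes tested, and 4 had an unadjusted p under 0.05. Summed levels of 9 excitatory neuron markers were 2892 to 3506 CPM in Ctrl and 2856 to 3144 CPM in cKO, those of 6 pan-neuron markers 4650 to 5282 and 4377 to 4857 CPM, and those of 8 interneuron markers 513 to 611 and 460 to 669 CPM. The 4 choroid plexus markers summed to at most 0.439 CPM in any library, and 6 striatal markers to 105 to 144 CPM. The marker genes with an unadjusted p under 0.05 were Slc17a7, a vesicular glutamate transporter (log2 fold change 0.73, adjusted p = 0.0722), Syt1 (0.51), Pax6 (0.31), Aqp4 (0.74) and Pdgfrb (0.27). With the length and GC correction Slc17a7 passed at 0.77 (adjusted p = 0.0209 from edgeR). All 5 were higher in cKO, but most other genes of 4 of their lists were not. Of the excitatory neuron markers 2 lay above 0 and 7 below (median log2 fold change -0.07), of the pan-neuron markers 2 and 4 (-0.02), of the radial glia markers 3 and 5 (-0.09) and of the astrocyte markers 1 and 3 (-0.18). Of the endothelial and mural markers 5 lay above 0 and 1 below (0.24). In whole cortex, fewer cells of a type and less RNA per cell cannot be told apart, and the part of these markers in the results above was not tested.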

How the data were processed

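Cortices at E18.5 were profiled by mRNA sequencing in 3 Ctrl and 3 cKO libraries. The authors deposited 1 table with estimated counts (89.4% of them whole numbers, not normalized between libraries), TPM values scaled by the authors to a common sum per library, and FPKM values scaled by the authors for length and library total. The submitters' processing notes name HISAT2 2.2.1, Bowtie2 2.4.5, RSEM 1.3.1 and the builds GRCm38 and mm10, with no role or order. Annotation and strandedness are not given in the sources used here, and reads of close relatives or antisense genes may be split. The table also holds 6 columns of group averages and the authors' own comparison, which were not used.

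Estimated counts were rounded, filtered with filterByExpr, scaled by TMM and compared with edgeR 4.0.16 (quasi-likelihood test, no block, Benjamini-Hochberg adjustment over the 13570 genes tested) in R 4.3.3. Confidence intervals are at 95% and errors are SD unless named. Intervals and the floor of 3 counts cover only part of the error: the common biological coefficient of variation was 0.147. Alternatives were a replicate block, RLE size factors, DESeq2 1.42.0, other filters, each library left out, limma 3.58.1 on log2(TPM + 1) and log2(FPKM + 1), an unadjusted threshold, and removal of each library's smooth trend on length and GC content of transcripts (mgcv 1.9.3). Length, GC content, coordinates and coding sequences are from GENCODE M21 on GRCm38, for the longest coding transcript of 96.7% of genes. The fits were tested on simulated data. Plots used matplotlib 3.10.9 under Python 3.11.15.

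Libraries were grouped by their titles. No pair of libraries within a group was a duplicate (chi-square per degree of freedom of 3.41 to 62.4, the highest for pairs with Ctrl replicate 2). Genes named are the 9 members, Ybx1, the most alike gene of a member (1 of these is not reported here), the alpha-catenins, and list genes with an adjusted p under 0.05 or the up to 3 lowest unadjusted p under 0.05 per list. Eif2s3y, Ddx3y, Kdm5d, Uty and Gm21986 were named after their values or positions were seen. The members and lists were chosen with earlier results of these data known. Other family members were not analysed here.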

Additional observations from a re-analysis of the deposited data

How the results depend on the processing

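None of the 9 genes passed the adjusted threshold under any alternative, with adjusted p from 0.322 to 1, and 0 had an unadjusted p under 0.05 in the fit of all libraries. At an unadjusted p under 0.05, Lrrtm2 passed without Ctrl replicate 3, and Lrrtm1 passed with the TPM values and with the length and GC correction plus the block. The share of all genes tested at that threshold in these fits is not given here, so these passes are not read as a result. Of 135 alternative values, 112 kept their sign and 23 did not. Lrrtm1 and Lrrtm4 stayed above 0 in all 15 of theirs. These alternatives reuse the same libraries, so a kept sign is not separate evidence of a difference. The share of all genes tested that kept their sign is not given here. Leaving out 1 library gave -0.0983 to 0.0574 for Nrxn2, -0.11 to 0.17 for Nrxn3, -0.0339 to 0.32 for Nlgn1, -0.0797 to 0.0528 for Nlgn2, -0.0400 to 0.27 for Nlgn3, 0.0253 to 0.18 for Lrrtm1, -0.0587 to 0.43 for Lrrtm2, -0.0703 to 0.25 for Lrrtm3 and 0.0692 to 0.30 for Lrrtm4. The length and GC correction gave -0.11 for Nrxn3, -0.0123 for Nlgn1 and -0.0026 for Nlgn3, and -0.13, -0.0122 and -0.0013 with the replicate block as well. The TPM values gave 0.14 for Nrxn2, 0.14 for Nlgn2 and 0.26 for Lrrtm1, beside a median shift of 0.14 over all genes tested on that scale. The FPKM values gave 0.0339 for Nrxn2 and 0.0323 for Nlgn2, beside a median shift of 0.0421. The cause of these sign changes was not tested.

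The number of genes past the adjusted threshold was 10 in the fit of all libraries, 99 with DESeq2, 193 after correcting length and GC content, 179 when the replicate block was added to this, and 8 to 122 with 1 library left out, the highest without Ctrl replicate 2 and 19 without Ctrl replicate 3. Among partner list genes the number was 0, but 4 with the correction (Nxph4, Ptprf, Clstn1 and Mdga1), 3 with the correction and the block (Nxph4, Il1rap and Mdga1, without Ptprf and Clstn1) and 0 to 3 with 1 library left out (Nxph4, Cbln2 and Mdga1 without Ctrl replicate 2).

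The replicate block alone gave 11 genes, 0 of the 9 members and 0 partner genes, and changed no call of theirs. The series text speaks of 3 sequencing batches without assigning libraries, and same-numbered libraries deviated from their group means with correlations of 0.0884, 0.0615 and 0.230, so the numbers were not taken to pair the libraries. Each library correlated best with its own number, a hint from the data. The precision for each of the 9 genes is that of its own interval.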
